A study of Mus musculus with 4 samples.

Results

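The genes described are 9 transcription factors of the AP-1 kind: Jun, Junb, Jund, Fos, Fosb, Fosl1, Fosl2, Atf3 and the small Maf factor Maff. They were chosen by name, and every probe set whose platform annotation gave 1 symbol, that symbol being one of these, was taken. This gave 13 of the 12422 probe sets tested and 9 of the 8251 genes named. Of the 9 genes, 6 had 1 probe set, while Junb, Fos and Atf3 had several.

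All 4 arrays held total RNA of cultured mouse embryonic fibroblasts of the Men1 knockout genotype, on a mixed FVB;129Sv background. On 2 arrays, labelled Men1 MEFs, the cells had been given Men1, and on the other 2, labelled Men1-/- MEFs, they had been given vector. Both kinds of cells grew in DMEM with FBS and Pen/Strep and were collected about a day after seeding. The vector cells and the Men1 cells share the knockout genotype. The labels do not say whether replicates came from separate cultures or whether each line was 1 clone. The p-values set a difference only against the spread between these 4 arrays, pooled in part over all probe sets. That spread may be technical. The aim given with the series was to find targets of menin, the nuclear scaffold protein that Men1 encodes. Groups are named as labelled.

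AP-1 is a dimer of basic leucine zipper proteins. Jun proteins can pair with each other or with Fos proteins, whereas Fos proteins need a Jun partner, and the dimers bind short DNA sites known as TPA response elements. Many of these genes are early-response genes, whose transcripts appear within minutes to hours of serum or stress and decay quickly. JunD is set apart in that it is made in resting cells too and is the Jun protein that menin is known to bind, through which menin represses JunD-driven transcription. Atf3 pairs with Jun proteins on related cyclic AMP response elements. Maff lacks a transactivation domain and binds DNA as a homodimer or with CNC and Bach proteins.

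Promoter sequences in RefSeq were found for 8 of the 9 genes, with 10 annotated starts in all because Maff has several. Short windows are shown for those that hold a match to a site of the cyclic AMP response element kind, the kind that Jun, Fos and Atf3 products bind, in the 250 bases before the start. Each is written 5′ to 3′ on the strand of the gene, with the match in capitals, and coordinates are GRCm38.p6.
Jun, chr4:95052234-95052293, minus strand: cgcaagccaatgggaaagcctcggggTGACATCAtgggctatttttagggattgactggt
Fos, chr12:85473798-85473855, plus strand: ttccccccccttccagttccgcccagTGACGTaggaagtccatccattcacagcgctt
Atf3, chr1:191183334-191183367, minus strand: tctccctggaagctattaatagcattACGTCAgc
Maff, upstream of the second start listed, chr15:79347465-79347519, plus strand: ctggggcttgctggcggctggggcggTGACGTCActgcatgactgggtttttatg
Maff, upstream of the third start listed, chr15:79348331-79348390, plus strand: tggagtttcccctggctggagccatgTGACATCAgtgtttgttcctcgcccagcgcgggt

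The motifs searched, on both strands, were TGACTCA, TGACGTCA, TGACATCA and TGACGT, the last of which also lies inside TGACGTCA. Over all 32851 promoters in the table, 4.46% held TGACTCA, 1.55% held TGACGTCA, 2.93% held TGACATCA and 6.47% held TGACGT. Among the 10 promoters of these genes, 0 held TGACTCA, 1 held TGACGTCA, 2 held TGACATCA and 3 held TGACGT. The match before the Jun start lies at positions -45 to -38 relative to that start, and that before the Fos start at -66 to -61. The Atf3 match, on the opposite strand, lies at -8 to -3. No match to these letters was present in this window for Junb, Jund, Fosb, Fosl2 and the first Maff start. These matches are descriptions of the sequence, and the arrays measured no binding.

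The values are MAS5 signals, which are linear probe set intensities scaled per array by the authors. Differences are given on the scale log2(signal + 16), Men1 minus vector, which understates the fold of dim probe sets. The 2% trimmed mean was 150.07 to 150.08 on every array and the 75th percentile 186.2 to 195.1. The highest signal among 19 control probe sets with no spiked RNA was 25.9 and 27.4 on the Men1 arrays, against 15.9 and 20.0 with vector. Signals at or under these are said to be at control level on that array. This cut was higher on the Men1 arrays, so similar signals can be called differently between groups. Men1 itself had 1 probe set, with signals of 18.8 and 22.5 on the Men1 arrays, at control level, against 18.1 and 29.5 with vector, above it. Its log2 difference was -0.11 (SE 0.22, limma adjusted p = 1). Where it lies relative to the deleted and the returned sequence is not known here, so it does not check the labels.

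Among markers of the labelled cell type, 8 of 14 fibroblast genes were above control level on all arrays, including the collagen gene Col1a1 at 7618.7 and 6175.7 on the Men1 arrays, against 6057.4 and 7091.9 on the vector arrays. Vim, also among the 8, was nearer control level, at 33.0 and 28.8 on the Men1 arrays, against 24.2 and 37.5 on the vector arrays. The fibroblast markers Thy1 and Fap were at control level on all 4, and Col3a1, Dcn, Prrx1 and Lum on some. Epithelial, endothelial and blood cell markers were above it on all arrays for 2 of 7, 1 of 6 and 3 of 6 genes. Those above it were Krt19 and Cdh1, Pecam1, and Cd74, Cd68 and Csf1r, whereas Epcam, Cdh5 and Ptprc were at control level throughout. Krt19, Pecam1 and Cd74 were higher on both Men1 arrays without overlap, as were 10.1% of all genes. Neural markers were above control level on all arrays for 4 of 5. Sox2 read 881.9 and 562.2 on the Men1 arrays, against 928.2 and 505.2 on the vector arrays. Its probe set, 100009_r_at, has a suffix that marks relaxed design rules. Summed neural signal was 4085.3 and 3287.7 on the Men1 arrays, against 4349.1 and 2715.3 on the vector arrays, and the groups overlapped. Nes gave the largest part of that sum, at 2232.6 and 1859.5 on the Men1 arrays, against 2172.2 and 1358.9 on the vector arrays. Among the markers, the smallest p was that of Myog, which encodes the muscle transcription factor myogenin. Myog read 23.7 and 28.1 on the Men1 arrays, against 68.1 and 53.3 on the vector arrays, with no overlap. The log2 difference of Myog was -0.87 (SE 0.20, limma unadjusted p = 0.00734, adjusted p = 1), at position 20 of all probe sets ordered by p. On Men1 replicate 1 it was at control level. All 5 skeletal muscle markers had a log2 difference below 0, as did 4371 of all 8251 genes. Of the 5, 2 were above control level on all arrays. Only Myog, 1 of the 5 (20%), did not overlap between groups, against 22.1% of all genes. Ckm, Acta1, Myod1 and Des overlapped. The summed signal of all 5 muscle markers was 241.1 and 187.6 on the Men1 arrays, with no overlap with the 299.2 and 276.7 on the vector arrays. Summed fibroblast, epithelial, endothelial and blood cell signals overlapped between groups. Col1a1 gave the largest part of the fibroblast sum, which therefore says little about dimmer markers. On vector replicates 1 and 2, Dcn read 18.5 and 139.3, Prrx1 16.5 and 125.6, Col3a1 30.9 and 101.3 and Pdgfra 29.8 and 95.1. Pdgfrb, at 87.3 and 69.2, and Fap, at control level, went the other way. The part of other cell types in the results below was not tested. In RNA from whole cultures, fewer expressing cells and less RNA per cell cannot be told apart.

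Junb and Maff read higher on both Men1 arrays than on either vector array, as did 10.4% of all probe sets. Fosl1 and 1 Atf3 probe set also read higher without overlap, and Fosb read lower without overlap. The ratio of means, Men1 over vector, was 2.58 and 1.22 for the Junb probe sets and 1.37 for Maff. Jund, the Jun gene whose product menin binds, overlapped between groups, with a ratio of 0.909. None of these differences passed the test over all probe sets.

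Of the 13 AP-1 probe sets, 11 were above control level on all 4 arrays and 2 were at control level on all 4, namely the dimmer Fos and the dimmest Atf3 probe sets. None of the 13 passed the limma threshold of an adjusted p under 0.05, as was so for 0 of all 12422 probe sets (0%). At an unadjusted p under 0.05 there was 1 of 13, a Junb probe set, and 1.88% of all probe sets. For 6 of 13 (46.2%) the signals of both groups were apart, with no overlap, against 22.1% of all probe sets. In 5 of these both Men1 arrays were higher (10.4% of all probe sets) and in 1 both were lower (11.7% of all). The 5 were the pair of Junb probe sets, with Fosl1, Maff and 1 of the Atf3 probe sets, and the 1 was Fosb. The Junb probe sets measure the same gene and are not independent. With each gene counted once by its brightest probe set, 4 of 9 did not overlap (44.4%), against 22.1% of all genes. In 3 of the 4 the Men1 arrays were higher (10.1% of all genes) and in 1 lower (12% of all genes). If the 4 arrays fell in random order, the groups would be apart at a rate of 0.333. Whether the AP-1 share differs from that of all genes was not tested.

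**Figure D1:**
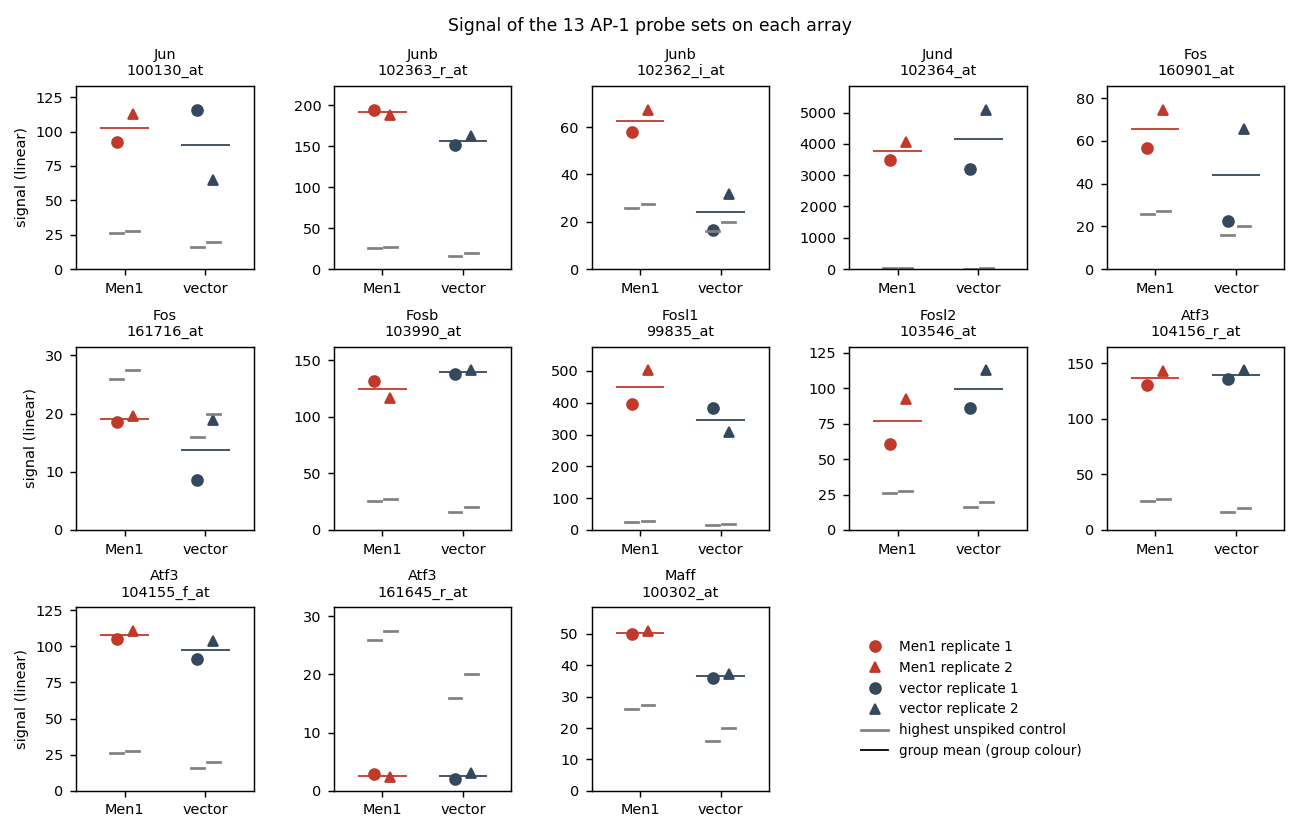
Linear signal (y axes, each from 0 and on its own scale) of the 13 AP-1 probe sets on the 2 Men1 arrays (red, left) and the 2 vector arrays (dark, right), with circles for replicate 1, triangles for replicate 2, a line at each group mean and a grey tick at the highest unspiked control of that array. Both Junb probe sets, Maff, Fosl1 and the Atf3 probe set 104155_f_at have both Men1 points above both vector points, and Fosb has them below.

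Jund, the menin-binding Jun gene, was measured by 1 probe set (102364_at). It read 3482.3 and 4070.1 on the Men1 arrays, against 3209.9 and 5094.6 on the vector arrays. The vector arrays held both the lowest and the highest of the 4 signals, so the groups overlapped. The means were 3776 ± 416 on the Men1 arrays and 4152 ± 1333 on the vector arrays (SD, n = 2 each). The log2 difference was -0.10 (SE 0.28, limma adjusted p = 1). Its 95% interval, -0.83 to 0.62, covers folds from 0.563 to 1.54, so these arrays leave room for a moderate difference in either direction. Without vector replicate 2 the difference was 0.23 and without Men1 replicate 1 it was 0.01, so its sign depended on single arrays.

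Junb encodes a Jun protein that activates transcription less strongly than c-Jun at many sites and can oppose it. Its probe set 102362_i_at read 58.1 and 67.4 on the Men1 arrays, against 16.7 and 31.9 on the vector arrays. The Men1 signals were above both vector signals, and the vector signal of replicate 1 was close to the control of 15.9 on that array. The means were 62.8 ± 6.58 on the Men1 arrays and 24.3 ± 10.8 on the vector arrays (SD, n = 2 each), a ratio of 2.58. The log2 difference was 0.99 (SE 0.25, 95% interval 0.34 to 1.64), with a limma unadjusted p of 0.0112 and an adjusted p of 1. It stood at position 37 of all probe sets when these were ordered by p. Its size depended on the pseudocount, at 1.40 with 1 and 0.53 with 64. Without Men1 replicate 2 the unadjusted limma p was 0.0611 and the difference was 0.90.

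The other Junb probe set, 102363_r_at, measures the same gene and is not independent of the first. It read 194.8 and 188.4 on the Men1 arrays, against 151.0 and 163.1 on the vector arrays, again with no overlap. The log2 difference was 0.26 (SE 0.17, 95% interval -0.18 to 0.71), with an unadjusted limma p of 0.187 and an adjusted p of 1. Both Junb probe sets thus lay in the same direction with unlike sizes. By Affymetrix naming, the suffix i marks a probe set with fewer probes than usual and r one for which design rules were relaxed.

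Jun, which encodes c-Jun, read 92.3 and 112.8 on the Men1 arrays, against 116.0 and 65.1 on the vector arrays. The vector arrays again spanned both Men1 signals. Its log2 difference was 0.19 (SE 0.29, 95% interval -0.57 to 0.95, limma adjusted p = 1). Without vector replicate 2, the array with the lowest signal, it was -0.16. Across the 3 Jun family genes, Jun and Jund therefore overlapped between groups and Junb did not.

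Among Fos family genes, Fos itself had 2 probe sets. The brighter, 160901_at, read 56.7 and 74.7 on the Men1 arrays, against 22.6 and 65.4 on the vector arrays. Only the vector replicate 1 signal was low, and the vector replicate 2 signal lay between the Men1 signals. The log2 difference of this probe set was 0.53 (SE 0.40, 95% interval -0.49 to 1.56, limma adjusted p = 1). Without vector replicate 2 it was 1.07, with a limma adjusted p of 0.88. Without vector replicate 1 it was -0.0035. The dimmer Fos probe set, 161716_at, read 18.5 and 19.5 on the Men1 arrays, against 8.5 and 18.9 on the vector arrays. All 4 of its signals were at control level, so no fold is given for it.

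Fosl1, which encodes Fra-1, read 395.1 and 501.5 on the Men1 arrays, against 383.9 and 308.1 on the vector arrays. The groups did not overlap, but the lower Men1 and the higher vector signal were close. Its log2 difference was 0.36 (SE 0.22, 95% interval -0.22 to 0.93, limma unadjusted p = 0.169, adjusted p = 1). Leaving out single arrays gave 0.19 to 0.52.

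Fosl2, which encodes Fra-2, read 61.0 and 92.8 on the Men1 arrays, against 85.9 and 112.6 on the vector arrays. The groups overlapped. Its log2 difference was -0.32 (SE 0.26, 95% interval -0.98 to 0.34, limma adjusted p = 1), and single arrays left out gave -0.57 to -0.07. Fosl1 and Fosl2, both Fos proteins without a strong transactivation domain, thus had differences of opposite sign, neither of which passed the test. The contrast between these genes was not tested.

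Fosb read 131.9 and 116.9 on the Men1 arrays, against 137.7 and 140.9 on the vector arrays. It was the only AP-1 probe set with both Men1 signals below both vector signals. The log2 difference was -0.15 (SE 0.18, 95% interval -0.60 to 0.31, limma unadjusted p = 0.439, adjusted p = 1), which was within its SE.

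Atf3, a stress-induced factor that often acts as a repressor, had 3 probe sets. The probe set 104156_r_at read 130.2 and 142.8 on the Men1 arrays, against 135.5 and 143.4 on the vector arrays, with a log2 difference of -0.03 (SE 0.17). Its groups overlapped. The probe set 104155_f_at read 105.1 and 110.4 on the Men1 arrays, against 91.5 and 103.7 on the vector arrays, with no overlap and a log2 difference of 0.13 (SE 0.18). The suffix f marks probes that can match several related sequences. The dimmest, 161645_r_at, read 2.8 and 2.4 on the Men1 arrays, against 2.0 and 3.0 on the vector arrays, at control level on all 4. Both brighter probe sets had intervals within -0.48 to 0.58 on the log2 scale and a limma adjusted p of 1, and they disagreed in sign.

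Maff read 49.8 and 50.8 on the Men1 arrays, against 36.0 and 37.2 on the vector arrays. The replicates of each group were close to each other and the groups were apart. Its means were 50.3 ± 0.707 on the Men1 arrays and 36.6 ± 0.849 on the vector arrays (SD, n = 2 each), a ratio of 1.37. The log2 difference was 0.33 (SE 0.17, 95% interval -0.10 to 0.77), with a limma unadjusted p of 0.106 and an adjusted p of 1. The SE is drawn from all probe sets as well as from these 4 signals, and therefore exceeds the spread between the Maff replicates. Without single arrays the difference was 0.32 to 0.35. With a pseudocount of 64 it was 0.18.

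**Figure D2:**
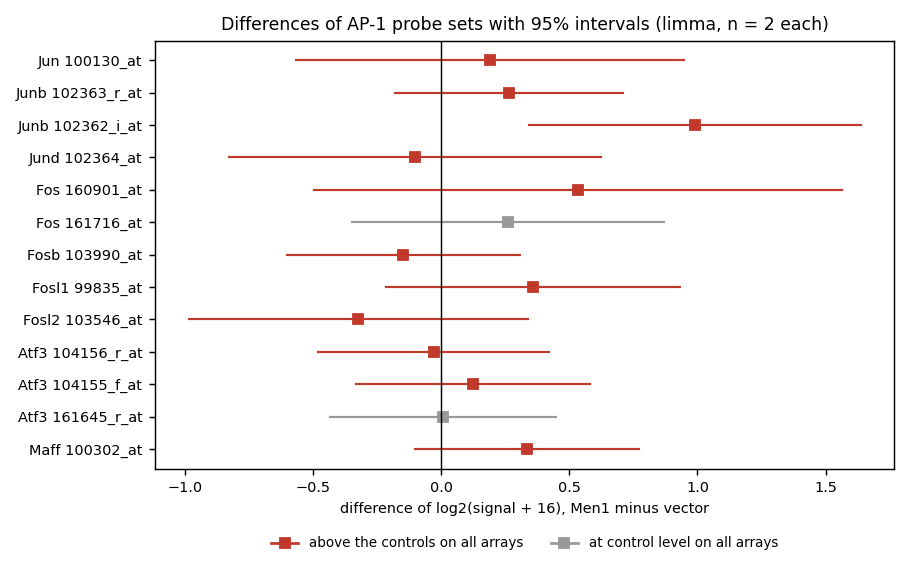
Log2 difference, Men1 minus vector (x axis), of each AP-1 probe set (rows) as a square, with its 95% limma interval as a line. Grey rows were at control level on all arrays. Only the interval of Junb 102362_i_at, 0.34 to 1.64, lies wholly on one side of 0.

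Taking all 13 probe sets, 9 had a difference above 0 and 4 below, with a median of 0.19. Over all probe sets 47.2% were above 0 and the median was -0.01. By the brightest probe set of each gene, 5 of the 9 genes were above 0 (47% of all genes) and 4 below, and the median was also 0.19. Of the 4 ways to set a Men1 array against a vector array, which share arrays, the median ran from -0.02 to 0.29, with 6 to 11 of the 13 probe sets higher. The median was 0.0040 without vector replicate 1, with 7 of 13 above 0.

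The vector arrays differed more from each other than the Men1 arrays did for 9 of the 13 probe sets. Vector replicate 1 gave the lowest of the 4 signals for 6 of the 11 probe sets above control level, and vector replicate 2 the highest for 4. Men1 replicate 2 was the highest for 5. These counts were not taken over all probe sets and are not read as a trait of the AP-1 genes. Over all probe sets, the absolute log2 difference had a median of 0.196 for the pair of Men1 arrays and of 0.306 for the pair of vector arrays. With 2 arrays in each group, an exact permutation test of a single gene could not give a two-sided p below 0.333.

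**Figure D3:**
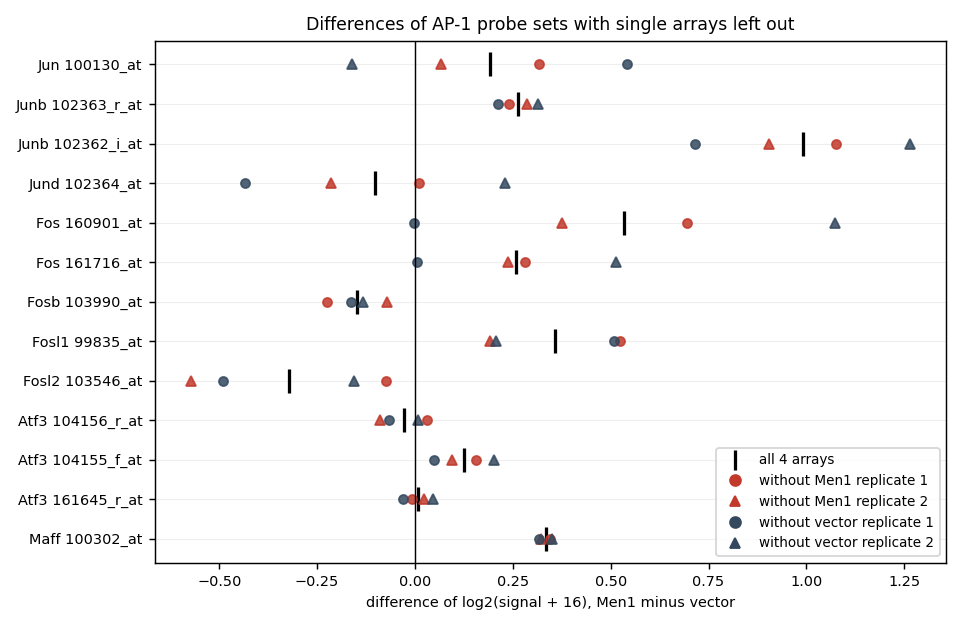
Log2 difference, Men1 minus vector (x axis), of each AP-1 probe set (rows) with all 4 arrays (black bar) and with each array left out in turn (symbols). Maff, both Junb probe sets, Fosl1, Atf3 104155_f_at and Fos 161716_at stay on the right of 0, with Maff at 0.32 to 0.35. Fosb and Fosl2 stay on the left. Jund, Jun, Fos 160901_at, Atf3 104156_r_at and Atf3 161645_r_at have symbols on both sides.

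Genes that work with AP-1 were described by their brightest probe set, in 3 lists. Of 21 measured genes of other basic leucine zipper factors and AP-1 repressors, 9 were higher and 12 lower, with a median of -0.0089. None of these 21 genes passed the limma threshold and 0 had an unadjusted p under 0.05, against 1.68% of all genes. Signals of 23.8% of them did not overlap between groups, against 22.1% of all genes. Cebpb, which encodes a zipper protein of serum and cytokine responses, read 529.9 and 496.4 on the Men1 arrays, against 384.4 and 362.9 on the vector arrays. Its log2 difference was 0.44 (SE 0.17, limma unadjusted p = 0.0519, adjusted p = 1). Bach1, a repressor that pairs with small Maf proteins, read 238.4 and 266.8 on the Men1 arrays, against 167.6 and 232.1 on the vector arrays, a log2 difference of 0.33 (SE 0.22). Maf read 24.3 and 22.0 on the Men1 arrays, at control level, and 16.1 and 8.9 on the vector arrays. Nfe2, a partner of small Maf proteins in blood cells, read 30.3 and 7.0 on the Men1 arrays, against 24.3 and 46.6 on the vector arrays, which overlap.

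Among 27 kinases and cofactors upstream of AP-1, 14 were higher and 13 lower, with a median of 0.0016. Again 0 passed the limma threshold and 0 had an unadjusted p under 0.05, against 1.68% of all genes. Groups did not overlap for 25.9%, close to the 22.1% of all genes. Crebbp, the acetyltransferase CBP that serves as a coactivator of Jun and Fos, read 213.8 and 194.6 on the Men1 arrays, against 153.8 and 164.0 on the vector arrays. Its log2 difference was 0.33 (SE 0.17, limma adjusted p = 1). Elk3, a ternary complex factor that acts on the Fos promoter, read 227.1 and 234.0 on the Men1 arrays, against 201.0 and 163.2 on the vector arrays, a log2 difference of 0.32 (SE 0.19). The kinase gene Map2k6 read 23.9 and 27.0 on the Men1 arrays, at control level, and 18.6 and 16 on the vector arrays. Map3k5, which encodes the stress kinase ASK1, was at control level on all 4 arrays. Mapk8, which encodes the Jun kinase JNK1, differed by -0.12 (SE 0.19), and was chosen for its role after its values were seen.

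Of 29 genes reported elsewhere as AP-1 targets, 17 were higher and 12 lower, with a median of 0.10. None passed the limma threshold, and 1 of the 29 was lower at an unadjusted p under 0.05, against 0.97% of all genes. That gene, Il6, was at control level on all arrays, with 1.9 and 1.9 on the Men1 arrays, against 8.8 and 9.9 on the vector arrays. Timp1, an inhibitor of matrix metalloproteinases, read 1011.0 and 806.5 on the Men1 arrays, against 750.8 and 633.3 on the vector arrays, a log2 difference of 0.38 (SE 0.21). The prostaglandin synthase gene Ptgs2 read 447.8 and 503.7 on the Men1 arrays, against 463.4 and 186.3 on the vector arrays, and the metallothionein gene Mt2 read 963.9 and 1536.8 on the Men1 arrays, against 1435.4 and 2692.3 on the vector arrays. Both overlapped between groups. Signals of 20.7% of the target genes did not overlap between groups, close to the 22.1% of all genes.

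**Figure D4:**
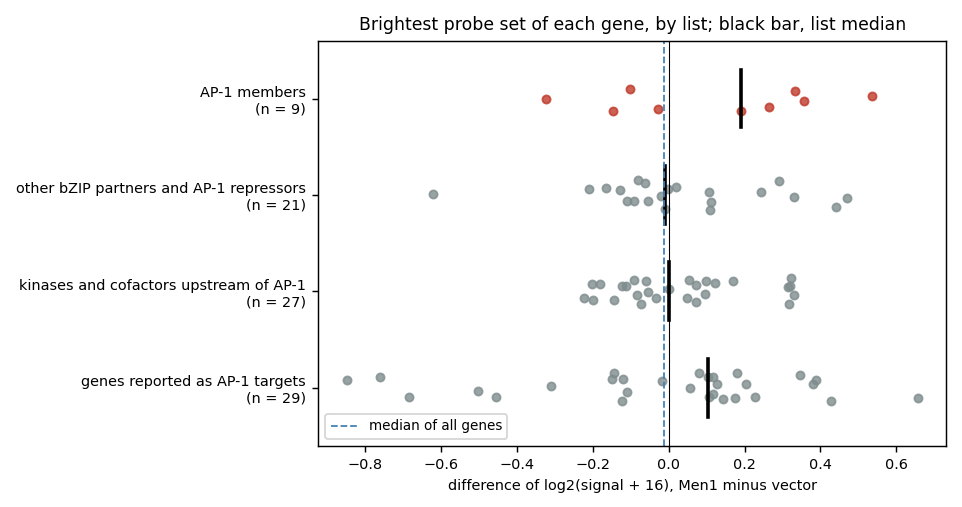
Log2 difference, Men1 minus vector (x axis), of the brightest probe set of each gene (points), for the 9 AP-1 genes (red) and 3 lists of related genes (grey), with a black bar at each median and a dashed line at the median of all genes. The medians are 0.19 for AP-1, -0.0089 for other zipper factors, 0.0016 for kinases and cofactors and 0.10 for targets, and no gene shown passed the limma threshold.

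The single-gene probe sets most like Jund over the 4 arrays, taken among 4100 of at least median signal and comparable spread, were those of 1110059E24Rik, Gcdh, Nudcd3 and Ube2c. Their Pearson r with Jund was 0.99973 to 0.99999 over 4 arrays. In so few arrays such values are common, and 90 of the 4100 had an r above 0.99. Nudcd3 read 418.6 and 491.9 on the Men1 arrays, against 382.2 and 615.2 on the vector arrays. The order of arrays was that of Jund, which follows from how Nudcd3 was chosen.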

How the data were processed

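RNA of 4 samples, 2 per group, was measured on 1 array each. The deposited values are intensity on a linear scale, 1 per probe set. Per the submitters' processing notes, the authors used MAS5 and Affymetrix Expression Console, with versions and scaling target not given in the sources used here. From the 12488 probe sets, 66 array controls were left out. Of the 12422 kept, 10833 had 1 gene symbol in the platform annotation, 396 several and 1193 none, and no gene was named from several. Gene IDs of all 9 AP-1 genes were found in the GRCm38.p6 gene table. Signals were taken as log2(signal + 16) and fitted with limma 3.58.1 (lmFit, eBayes) under R 4.3.3. Tests were two-sided, and p-values were adjusted over all probe sets by Benjamini-Hochberg. The fit had 2 residual and 2.87 prior degrees of freedom. It was also run on simulated data with independent errors and scored on brighter probe sets, which does not check it for dim ones. Precision is limited by the number of arrays (median SE of a difference, 0.22). The AP-1 genes and the lists were chosen with earlier results of these data known. Named were all AP-1 probe sets, Men1, up to 4 genes per list by smallest p, and the 4 probe sets most like Jund. Cell type markers and Mapk8 fall outside this rule and were chosen after their values were seen. Alternatives were other pseudocounts, quantile and 75th percentile scaling, a filter on dim probe sets, a replicate block and leaving out each array. Promoters came from RefSeq, GRCm38.p6.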

Additional observations from a re-analysis of the deposited data

How the results depend on the processing

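The overlap counts after other scalings were added after seeing the data. In every setting run, 0 of all probe sets, 0 AP-1 probe sets and 0 genes of the 3 lists passed the limma threshold. AP-1 probe sets at an unadjusted limma p under 0.05 numbered 1, and 0 to 3 without single arrays: 0 without Men1 replicate 2 and 3 without vector replicate 2. Over all probe sets there were 233, 118 of 8828 after the filter on dim probe sets, and 121 to 1031 without single arrays (1031 without vector replicate 1, 559 without vector replicate 2, 121 and 131 without Men1 replicates 1 and 2). The median AP-1 difference was 0.0040 to 0.24 without single arrays, 0.23 with a pseudocount of 1 and 0.10 with 64. Groups did not overlap for 6 AP-1 probe sets after quantile normalization (25.3% of all probe sets) and 7 after 75th percentile scaling (23% of all). Atf3 104156_r_at turned to 0.0083 after quantile normalization and ran from -0.088 to 0.031 without single arrays. Other such ranges that cross 0 were those of Jund (-0.43 to 0.23), Jun (-0.16 to 0.54), Fos 160901_at (-0.0035 to 1.07) and Atf3 161645_r_at (-0.031 to 0.047). The 2 probe sets at control level gave no value under the filter. Deviations of same-numbered arrays correlated at 0.258 over all probe sets, but 2 pairs do not show pairing. With the replicate block, 297 probe sets and 1 AP-1 probe set had an unadjusted limma p under 0.05, and 0 passed the threshold. A lone array in a group was assumed to vary like the others.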
